A study of Mus musculus with 6 samples.

Results

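The Ifi200 family, also called the HIN-200 or PYHIN family, was described here through 10 genes of the mouse, Ifi202b, Ifi203, Ifi204, Ifi205, Ifi207, Ifi209, Ifi211, Ifi213, Mndal and Aim2. They were picked by name from the 22377 genes of the count table. All 10 passed the filter on low counts that left 13884 genes for testing. The names were picked with the difference between the groups already known, so that difference is given as a description with no test.

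RNA was sequenced from 6 libraries, of which 3 carried the label wt and 3 the label ko. The study compared Npm1+/+ and Npm1+/- mice, male and female, which were aged 6 to 8 weeks when Lewis lung carcinoma (LLC) cells were implanted under the skin, and whose tumors were taken 2 weeks later. Npm1 encodes nucleophosmin, an abundant nucleolar protein. The study's methods describe CD45+ CD11b+ F4/80+ tumor-associated macrophages sorted from these tumors. The sample labels instead name tumor tissue, a small RNA library protocol and a knockdown as the treatment of the ko libraries, and give no genotype, strain, age or time. The Npm1 deficiency is systemic in the Npm1+/- mice, which keep 1 intact allele, and the grafted LLC cells have Npm1 alleles of their own. Each library is called by its label below (wt1 to wt3 and ko1 to ko3).

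Most HIN-200 proteins join a pyrin domain, through which they bind other proteins, to HIN domains, which bind DNA. Many of the genes are induced by interferons, and several of the proteins sense DNA in the cytosol or the nucleus of macrophages. AIM2 recruits the adaptor ASC and caspase-1 to form an inflammasome on cytosolic DNA, and p202, the product of Ifi202b, has HIN domains but no pyrin domain and restrains AIM2.

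Total counts ranged from 36550775 to 38147320 per library, so that 3 counts corresponded to between 0.0716 and 0.0846 CPM, the scaled unit of a count relative to the total of its library. The targeted gene was not lower in the ko libraries. Npm1 stood at 142, 380.2 and 381 CPM in wt1 to wt3 and at 441, 499 and 343 CPM in ko1 to ko3, a log2 difference, ko minus wt, of 0.51 ± 0.36 (SE), or 0.16 ± 0.18 without wt1. Library wt1 stood apart from the rest, at -108 on the first principal component of all tested genes while the other 5 libraries lay between -4.54 and 52.0. Log2 differences of the members are therefore given with and without wt1, as are those of other named genes that turned sign or moved by over 1.5 times. The 10 macrophage markers were measured in every library, with a summed level of 15878 to 21415 CPM in the wt libraries and 9469 to 15782 CPM in the ko libraries.

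The family forms 1 cluster on chromosome 1. In the GRCm38.p6 assembly its 13 genes with a row in the count table (the 10 above and Ifi206, Ifi208 and Ifi214) spanned chr1:173349547-174031755, a stretch of 682209 bases. From the lower to the higher coordinate the order was Aim2, Ifi206, Ifi214, Ifi213, Ifi209, Ifi208, Ifi207, Ifi204, Mndal, Ifi211, Ifi203, Ifi202b and Ifi205. Ifi202b lay at chr1:173962569-173982844 on the minus strand, between Ifi203 (chr1:173920400-173942866, minus) and Ifi205 (chr1:174011998-174031755, minus). Aim2 lay at the other end, at chr1:173349547-173466040 on the plus strand. Of the 7 other RefSeq genes in the span, only Cadm3 had a row of counts.

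Promoter sequences are shown first, since the family is known for its response to interferon and the genes lie side by side. They were taken from RefSeq (GRCm38.p6), as 300 bases from 250 before to 50 after the start, for 9 of the 10 genes. The letters GAAANNGAAA, the core of the interferon-stimulated response element (ISRE), were searched on both strands. They were found for 6 of the 9 genes (Ifi203, Ifi205, Ifi207, Ifi211, Ifi213 and Mndal) and for Ifi206, Ifi208 and Ifi214, against 3.44% of all 32851 promoter windows. In 4 of these 6 genes and in the 3 further genes the core read GAAATCGAAA, a form held by 16 promoter windows in all (0.0487%) and singled out after the matches were seen. The stretches below are written 5′ to 3′ on the gene's strand, with the core in capitals.
Ifi207, chr1:173741826-173741865: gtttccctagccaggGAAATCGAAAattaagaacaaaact
Mndal, chr1:173880199-173880238: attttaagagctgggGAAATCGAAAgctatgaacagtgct
Ifi203, chr1:173942503-173942542: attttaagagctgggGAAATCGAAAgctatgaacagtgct
Ifi213, chr1:173599321-173599360: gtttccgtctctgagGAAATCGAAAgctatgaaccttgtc
Ifi211, chr1:173913059-173913098: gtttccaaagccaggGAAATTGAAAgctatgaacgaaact
Ifi205, chr1:174031865-174031904: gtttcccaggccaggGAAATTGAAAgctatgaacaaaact
The Mndal and Ifi203 stretches were identical over all 40 bases, and those of Ifi205 and Ifi211 shared 37 of 40. The core began 41 bases before the start of Ifi207, 36 before that of Mndal, 35 before that of Ifi203, 73 before that of Ifi213, 37 before that of Ifi211 and 134 before that of Ifi205. The windows of Ifi205 and of a second Mndal promoter also held a core on the reverse strand. Ifi203 had 2 promoter windows as well, and its core lay only in the second, from whose start the distance is given. A gene was counted if any of its windows held the core, while the share over all promoters is per window.

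The windows of Ifi202b, Aim2 and Ifi209 held no GAAANNGAAA. Among the 9 genes only the Ifi202b window held TTCNNNGAA, the letters of the gamma-interferon activation site (GAS) to which STAT proteins bind. Of all promoter windows, 8.3% held them. The 250 bases before the start of Ifi202b, chr1:173982845-173983094 on the minus strand, are printed because this gene had the largest difference between the groups, with the GAS letters in capitals 148 bases before the start.
Ifi202b promoter: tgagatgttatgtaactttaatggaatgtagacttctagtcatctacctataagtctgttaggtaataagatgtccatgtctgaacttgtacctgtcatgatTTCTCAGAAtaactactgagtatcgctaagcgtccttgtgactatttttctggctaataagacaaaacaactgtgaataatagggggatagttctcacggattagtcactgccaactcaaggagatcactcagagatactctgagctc
Those of Ifi207, chr1:173741810-173742059 on the minus strand, are printed beside them as those of the family's most abundant transcript, with the ISRE core in capitals.
Ifi207 promoter: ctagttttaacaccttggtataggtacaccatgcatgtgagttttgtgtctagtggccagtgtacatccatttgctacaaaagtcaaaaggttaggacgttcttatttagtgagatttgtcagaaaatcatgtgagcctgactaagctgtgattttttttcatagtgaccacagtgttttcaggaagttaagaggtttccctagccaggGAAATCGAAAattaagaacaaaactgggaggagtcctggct
The letters GAAANNNGAAA and GGAANNGAAA (the ETS-IRF element) were in no window of the 9 genes and in 2.75% and 2.72% of all windows. TATAAA was in windows of 4 of the 9 genes, against 13.6% of all windows. A match is a run of letters, and binding was not measured.

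Related genes can share reads. The share of a gene's transcript windows of 100 bases that also occurred in the transcripts of another gene was 0% for Ifi202b and Aim2, 0.79% for Ifi207, 2.84% for Ifi203, 3.3% for Ifi213, 6.38% for Mndal, 10.7% for Ifi204, 15% for Ifi205, 16.9% for Ifi209 and 56.9% for Ifi211. In windows of 50 bases the shares were 0% for Ifi202b, 0.742% for Aim2, 7.29% for Ifi207, 12.4% for Ifi203 and 15.6% for Ifi213. They were 18.6% for Ifi205, 19.6% for Mndal, 20% for Ifi204, 33.7% for Ifi209 and 72.8% for Ifi211. The paper gives no read length, so neither window is known to match the reads. Ifi211 and Ifi205 shared most with each other at both lengths. Reads of Ifi211 could thus be split between genes by the counting more than those of any other member, and its values are uncertain. In the GENCODE annotation the span of Mndal overlapped those of Ifi203 and Ifi211 on the same strand, which it did not in RefSeq. The Aim2 span overlapped Cadm3 on the opposite strand, and Cadm3 held 0.507 to 2.05 CPM.

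Ifi202b was lower in the ko libraries than in any wt library, and the wt libraries differed widely among themselves. It stood at 14.6, 8.57 and 1.44 CPM in wt1, wt2 and wt3 and at 0.763, 1.00 and 0.629 CPM in ko1, ko2 and ko3 (519, 304 and 54 counts against 30, 42 and 23). The groups did not overlap, but wt3 lay far closer to the ko libraries than to wt1 or wt2. Mean levels were 8.20 ± 6.58 CPM in wt and 0.798 ± 0.189 CPM in ko (SD, n = 3 each), a ratio of 10.3. Against the ko mean, the single ratios were 18.3 for wt1, 10.7 for wt2 and 1.81 for wt3.

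The fitted log2 difference of Ifi202b, ko minus wt, was -3.35 ± 0.76 (SE) and was -2.64 ± 0.65 without wt1. It was the lowest estimate among the 13884 genes tested, and the difference is what brought the gene into view. Counting error alone (exact Poisson 95% intervals, which cover no variation between samples) gave 1.08 to 1.88 CPM for wt3 and 0.722 to 1.36 CPM for ko2. These intervals overlapped, so wt3 and ko2 were not separated at this depth. Ifi202b was the only one of the 10 members with each ko library below each wt library, an order that held for 12.6% of all genes tested.

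Aim2, the DNA sensor of the inflammasome that p202 restrains, was at 56.9, 47.4 and 80.6 CPM in wt1 to wt3 and at 66.6, 79.3 and 73.1 CPM in ko1 to ko3. The ko libraries all lay between the second and the highest wt library, so the groups overlapped. The log2 difference of Aim2 was 0.24 ± 0.20 (SE), and 0.19 ± 0.21 without wt1. Aim2 and Mndal were the only members whose estimate stayed above 0 in the fit and in all 14 alternatives. For Aim2 the lowest library was wt2, and for 8 of the other 9 members it was wt1.

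Ifi204 encodes p204, a protein linked to DNA sensing through STING and to myeloid differentiation. It stood at 194, 335 and 307 CPM in wt1 to wt3 and at 264, 228 and 251 CPM in ko1 to ko3. All 3 ko libraries lay between wt1 and the other wt libraries. The log2 difference was -0.17 ± 0.21 (SE) over all libraries and -0.38 ± 0.13 without wt1, while without wt2 it was -0.02.

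Ifi205, whose product p205 has been tied to the control of Asc expression in macrophages, spread over 44.9, 146 and 94.8 CPM in the wt libraries and 102, 95.4 and 74.8 CPM in the ko libraries. Its highest and lowest libraries were both wt. The log2 difference was -0.07 ± 0.37 (SE), but -0.41 ± 0.21 without wt1 and 0.37 without wt2, so its sign was not settled. Ifi211, which shares sequence with Ifi205, read 72.1, 172 and 143 CPM against 128, 112 and 127 CPM. Here too wt1 was lowest and wt2 highest, with the ko libraries in between, and the log2 difference was -0.08 ± 0.29 (SE), or -0.37 ± 0.14 without wt1 and 0.18 without wt2.

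Ifi207, a family member with a pyrin and a HIN domain, was the most abundant. It stood at 209, 583 and 515 CPM in wt1 to wt3 and at 482, 481 and 539.6 CPM in ko1 to ko3. Of the 6 libraries only wt1 was far from the others, and the other 5 overlapped. Its log2 difference was 0.20 ± 0.34 (SE), turning to -0.14 ± 0.14 without wt1.

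Ifi203 and Ifi209 resembled each other in the order of their libraries. Ifi203 was at 79.6, 229 and 253 CPM in wt1 to wt3 and at 234, 246 and 239 CPM in ko1 to ko3, and Ifi209 at 79.9, 184 and 249.6 CPM against 203, 199.5 and 204 CPM. In both genes the ko libraries lay close together, above wt2 and below wt3, and wt1 was lowest. The log2 difference of Ifi203 was 0.35 ± 0.38 (SE), or -0.01 ± 0.13 without wt1, and that of Ifi209 was 0.24 ± 0.35 (SE), or -0.11 ± 0.15 without wt1. The sign of both therefore rested on wt1.

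Ifi213 was low, at 14.0, 33.4 and 49.1 CPM in wt1 to wt3 and 30.8, 38.0 and 27.5 CPM in ko1 to ko3. Its groups had nearly equal means, 32.2 ± 17.6 CPM and 32.1 ± 5.36 CPM (SD, n = 3 each). Its log2 difference was -0.003 ± 0.40 (SE), but -0.37 ± 0.20 without wt1 and 0.42 without wt3. Mndal, related to the human myeloid cell nuclear differentiation antigen, read 58.7, 70.0 and 123 CPM in wt1 to wt3 and 95.5, 129 and 112 CPM in ko1 to ko3. In Mndal wt1 and wt2 were both below every ko library while wt3 lay among them, and the log2 difference was 0.42 ± 0.27 (SE), or 0.21 ± 0.24 without wt1.

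**Figure D1:**
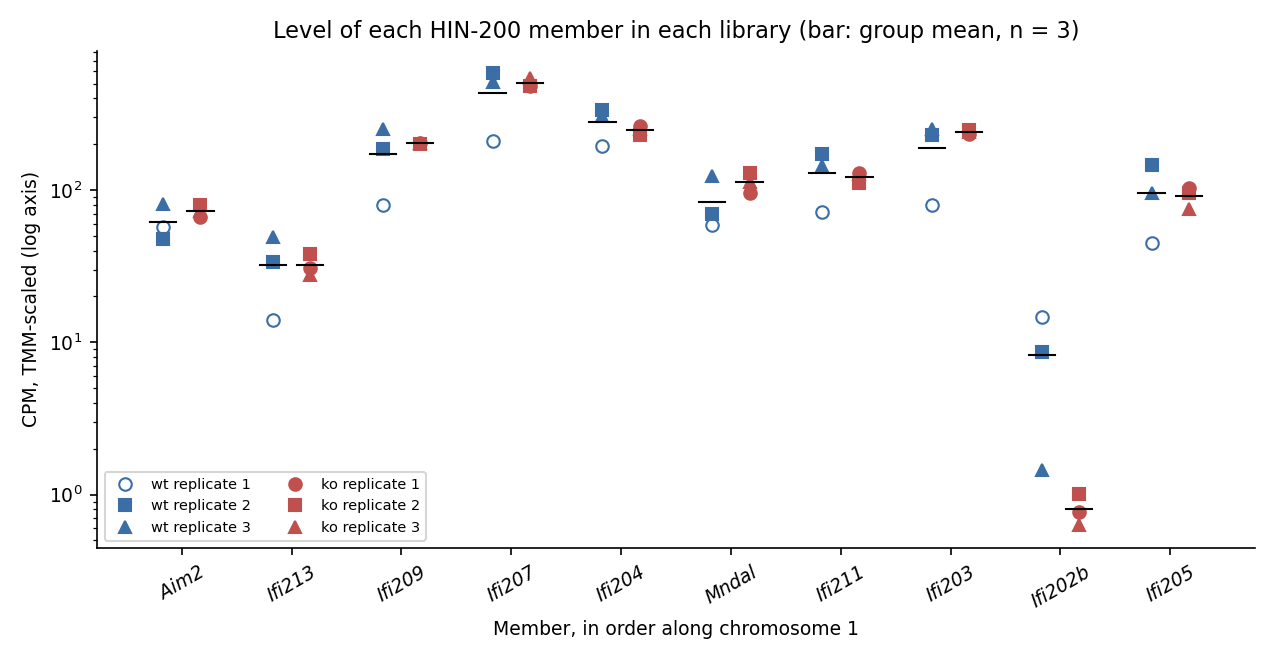
Level of each of the 10 members in each of the 6 libraries, as CPM on a log scale, with wt and ko libraries in separate colors and 1 point a library. For Ifi202b the points run from 0.629 CPM in ko3 to 14.6 CPM in wt1 with every ko point below every wt point, while for most other members wt1 is the point that lies lowest.

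Over the 10 members, 5 estimates were below 0 and 5 above, with a median log2 difference of 0.10 against 0.02 over all genes tested. Leaving out wt1 changed the median to -0.25, against 0.03 over all genes. No member had an adjusted p under 0.05 by edgeR, nor did any gene (0% of 13884). At an unadjusted p under 0.05 edgeR called 1 member, Ifi202b, and 15.2% of all genes. DESeq2 on the same counts called 1 member at an adjusted p under 0.05, again Ifi202b, and 0.263% of the 13699 genes to which it gave an adjusted p. Since the same contrast led to the choice of members, nothing is read from these counts.

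**Figure D2:**
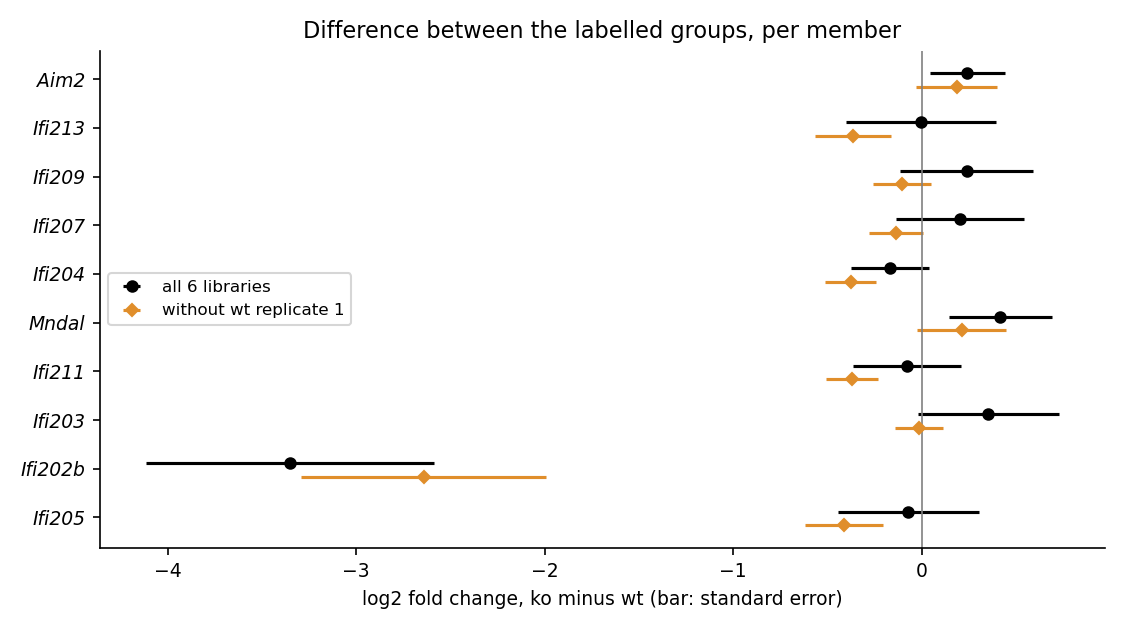
Fitted log2 difference, ko minus wt, of each member with bars of 1 SE, over all 6 libraries and again without wt1. Ifi202b stands alone at -3.35 and -2.64, and the other 9 members lie between -0.17 and 0.42 over all libraries and between -0.41 and 0.21 without wt1.

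Levels of different genes were compared per length, as FPKM, which scales the counts by gene length and by the library's total. Over the 6 libraries Ifi207 had a mean of 129 FPKM and Ifi204 of 109 FPKM, followed by Ifi211 (62.6), Ifi209 (53.9), Ifi205 (48.6), Ifi203 (32.3), Mndal (20.4), Aim2 (6.87), Ifi213 (3.88) and Ifi202b (2.37). Ifi207 was above Ifi204 in 5 of the 6 libraries, Ifi211 above Ifi209 in 4, Ifi209 above Ifi205 in 4, Ifi203 above Mndal in 5, and Ifi213 above Ifi202b in 4, so these neighbors were not set apart in every library. Ifi204 was above Ifi211, Ifi205 above Ifi203 and Mndal above Aim2 in all 6. Ifi202b ranged from 0.339 to 7.58 FPKM with a median of 0.715 FPKM, the widest range in relative terms of any member.

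The summed level of the 10 members was 241 FPKM in wt1, 536 in wt2 and 528 in wt3, and 506, 532 and 466 FPKM in ko1, ko2 and ko3. All libraries other than wt1 lay within 466 to 536 FPKM, and the groups overlapped. The group means were 435 ± 168 FPKM in wt and 501 ± 33.2 FPKM in ko (SD, n = 3 each). FPKM lacks the TMM scaling of the CPM values. The TMM factors were 0.933, 0.933 and 0.983 in wt1 to wt3 and 1.05, 1.15 and 0.969 in ko1 to ko3. On the TMM-scaled log2 CPM, the mean of the members was 5.90, 6.74 and 6.64 in wt1 to wt3. In ko1 to ko3 it was 6.35, 6.44 and 6.31, between wt1 and the other wt libraries. In bulk RNA, fewer cells of a type and less RNA per cell cannot be told apart. Ifi207 made up 22.0% to 30.6% of the sum and Ifi204 20.3% to 31.0%. The share of Ifi202b was 3.14% in wt1, 0.831% in wt2 and 0.150% in wt3, against 0.0882%, 0.12% and 0.0728% in ko1, ko2 and ko3.

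**Figure D3:**
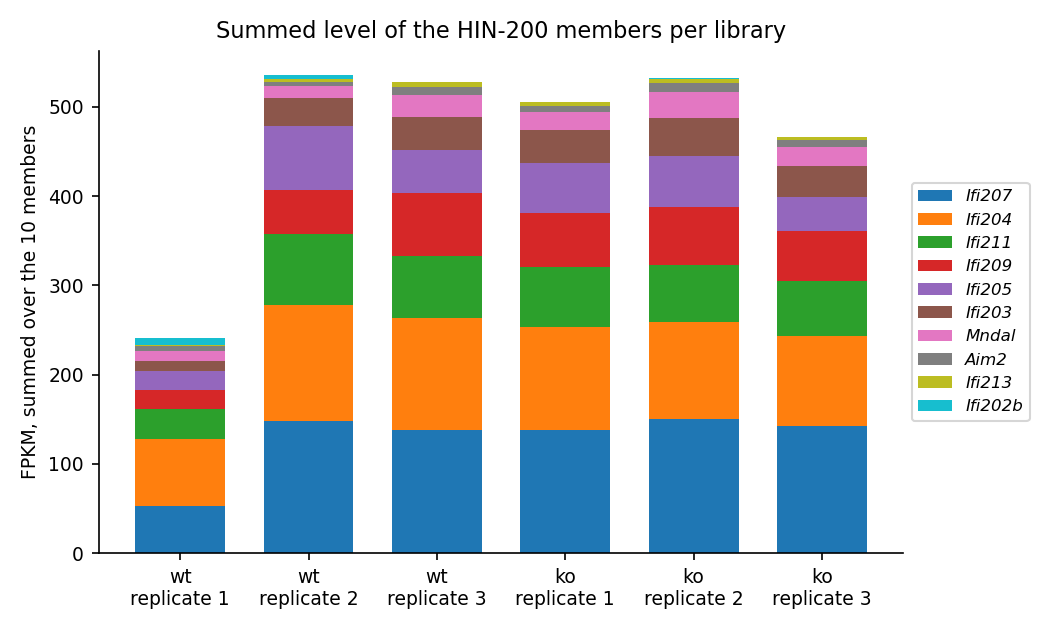
Summed FPKM of the 10 members in each library, without TMM scaling, with each bar divided by member and starting at 0. The wt1 bar reaches 241 FPKM and the other 5 bars lie between 466 and 536 FPKM, with Ifi207 and Ifi204 as the widest segments and Ifi202b too thin to see outside wt1 and wt2.

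Library wt1 was the lowest of the 6 for 8 of the 10 members, and for 33.5% of all genes tested. The mean of the other 5 libraries was 3.02 times the wt1 level for Ifi203, 2.60 for Ifi209, 2.55 for Ifi213, 2.49 for Ifi207, 2.29 for Ifi205, 1.89 for Ifi211, 1.80 for Mndal, 1.43 for Ifi204 and 1.22 for Aim2. For Ifi202b it was 0.17 times the wt1 level, so the gene that lies between Ifi203 and Ifi205 went the opposite way to both of its neighbors in this library. Markers of other cells differed in wt1 as well. The 7 fibroblast markers summed to 23.7 CPM in wt1 and to 275 to 688 CPM in the others. The T cell markers summed to 12.9 against 21.9 to 142 CPM, and the epithelial or carcinoma markers to 35.2 against 79.9 to 191 CPM. The first and last sums were mostly Col3a1 (19.0 against 245 to 604 CPM) and Krt8 (9.90 against 59.1 to 171 CPM). Library wt1 was lowest for 5 of the 7 fibroblast, 4 of the 5 T cell and 3 of the 4 epithelial or carcinoma markers. Col1a1 and Col1a2 were lowest in wt3, and Cdh1 was highest in wt1, at 24.3 CPM. The macrophage sum was highest in wt1, and the part of these differences in the family's levels was not tested.

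**Figure D4:**
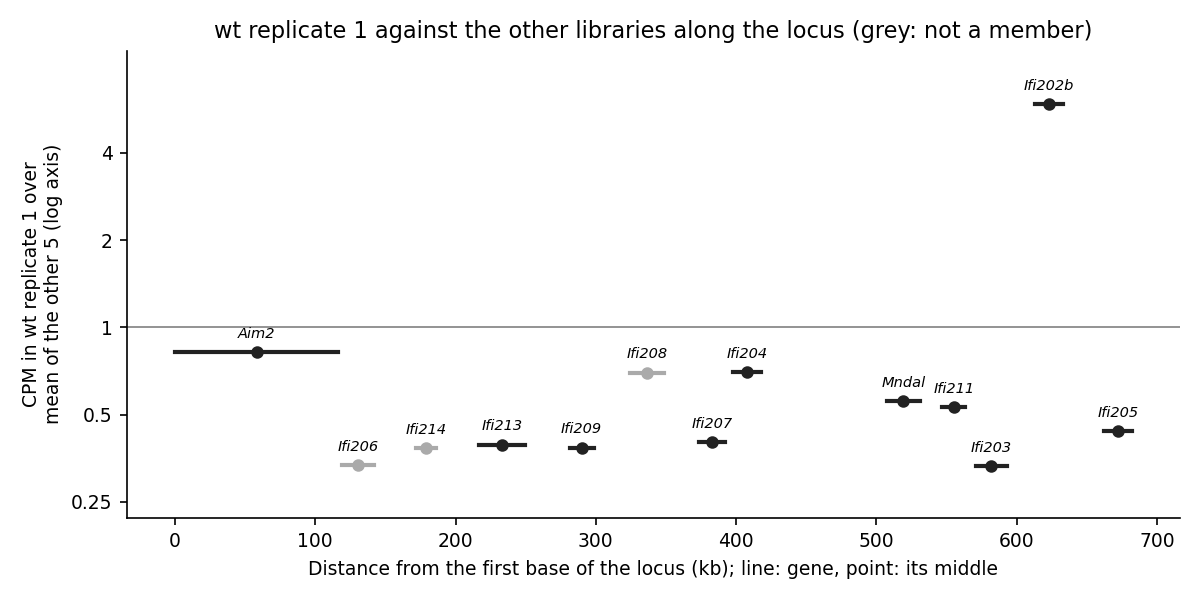
Level in wt1 divided by the mean of the other 5 libraries (log scale) for the 10 members in black and Ifi206, Ifi208 and Ifi214 in grey, placed by distance in kilobases from the lower end of the cluster on chromosome 1. Ifi202b lies far above 1 and the other 9 members below 1, including the genes on either side of it.

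Libraries wt2 and wt3 also differed from each other, and not in the same sense for every member. The wt2 level was 5.94 times that of wt3 for Ifi202b, 1.54 times for Ifi205 and 0.570 times for Mndal. Across the 6 libraries, Pearson correlations of log2 CPM among the 9 members other than Ifi202b were positive in 33 of 36 pairs, with a median of 0.78 and a range of -0.17 to 0.98. All 9 pairs with Ifi202b were negative, from -0.89 to -0.12 with a median of -0.60. These 6 points share their libraries and wt1 weighs heavily. Without wt1, 20 of the 36 pairs were positive with a median of 0.11, and 5 of the 9 pairs with Ifi202b were positive with a median of 0.17.

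Among the 8083 other genes with a mean of at least 10 CPM, the interleukin-7 receptor gene Il7r had the pattern most like the mean of the 10 members on a standardized log2 scale. Its correlation with that mean was 0.996 over the 6 libraries and 0.943 without wt1. The highest of 8083 values over 6 points is high by selection, and the value without wt1 reuses 5 of these points. Il7r stood at 57.6, 141 and 165 CPM in wt1 to wt3 and at 120.4, 137 and 131 CPM in ko1 to ko3, again lowest in wt1. The next genes were Mapk9, a stress-activated kinase (0.992, and 0.962 without wt1), Cul1, a ubiquitin ligase scaffold (0.984, and 0.794), Pank3, a pantothenate kinase (0.980, and 0.751), and Skil (0.974, and 0.620). Steep1, P2ry10b, Gna13, Baz1a and Zfp729b completed the first 10, and for Zfp729b the correlation was 0.964 over 6 libraries and 0.400 over 5.

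The 3 further family genes were low. Ifi206 stood at 6.07, 15.7 and 23.6 CPM in wt1 to wt3 and 18.4, 20.4 and 13.0 CPM in ko1 to ko3. Ifi208 was at 2.64, 1.32 and 3.34 CPM against 4.43, 7.09 and 2.76 CPM, and Ifi214 stayed under 1 CPM in every library. None had groups apart from each other, and their log2 differences were 0.19 ± 0.44, 0.97 ± 0.46 and 0.57 ± 0.49 (SE). Without wt1 these were -0.19 ± 0.24, 1.02 ± 0.50 and 0.26 ± 0.48, so that Ifi206 turned sign. Of 8 genes of other families from the same stretch of the chromosome, 4 had a row and 1, Cadm3, passed the filter, with a log2 difference of -0.05, or 0.69 without wt1.

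Genes of the AIM2 inflammasome, of cytosolic DNA sensing and of the interferon response were grouped by role. None of them passed an adjusted p of 0.05 by edgeR, by DESeq2 or by limma. The lowest edgeR adjusted p in these lists was 0.328. The lists were chosen with earlier results of these data known. Over all genes tested, 6656 of 13884 estimates were below 0, the share to set beside the sign counts of each list. In the AIM2 inflammasome list all 9 estimates were below 0, with a median log2 difference of -0.31 against 0.02 over all genes tested. An unadjusted p under 0.05 by edgeR was reached by 1 of 9, against 15.2% of all genes. Each ko library was below each wt library in 1 of the 9, against 12.6% of all genes. Gsdmd, which forms the pyroptotic pore, stood at 137, 94.4 and 93.8 CPM in wt1 to wt3 and 81.7, 62.7 and 102 CPM in ko1 to ko3 (-0.40 ± 0.22, SE, or -0.20 without wt1). Pycard, which encodes ASC, stood at 105, 89.2 and 82.5 CPM against 68.6, 53.8 and 88.6 CPM (-0.39 ± 0.20). In both genes ko3 lay among the wt libraries. The estimates nearest to 0 were those of Casp8 (-0.11) and Il18 (-0.002, or -0.14 without wt1).

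In the cytosolic DNA sensing list, 8 of the 9 genes tested had estimates below 0, with a median of -0.30, or -0.20 without wt1. An unadjusted p under 0.05 was reached by 4 of the 9, all lower in ko, against 15.2% of all genes in either direction. In 5 of the 9 each ko library was below each wt library, against 12.6% of all genes. Zbp1, a sensor of Z-form nucleic acid, stood at 98.6, 75.2 and 66.2 CPM in wt1 to wt3 and 56.2, 47.7 and 54.4 CPM in ko1 to ko3 (-0.60 ± 0.17, SE). Sting1, the adaptor downstream of cGAS, stood at 98.2, 77.4 and 72.2 CPM against 57.8, 44.7 and 63.0 CPM (-0.58 ± 0.18). For both genes the groups did not overlap. The estimates of Cgas (-0.11, or -0.03 without wt1) and Tbk1 (0.18, or 0.03 without wt1) were the highest of the list, and Trex1 had too few counts to be tested.

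Among interferons and their receptors, 5 of 7 estimates were below 0 with a median of -0.21. In 3 of the 7 each ko library was below each wt library (12.6% of all genes), and 3 passed an unadjusted p under 0.05 (15.2% of all genes), of which 2 were lower and 1 higher in ko. The receptor chains Il10rb (-0.52) and Ifngr2 (-0.48) had the lowest log2 differences. Ifng stood at 1.10, 1.04 and 4.41 CPM in wt1 to wt3 and 6.74, 19.2 and 3.58 CPM in ko1 to ko3, with overlapping groups and a log2 difference of 2.17 ± 0.78 (SE). Ifng is known as a product of T cells and NK cells, which the sort for CD11b and F4/80 described in the methods would be meant to remove or deplete. The summed T cell markers were 12.9 to 65.3 CPM in wt and 53.1 to 142 CPM in ko, while the NK cell sum was 20.4 to 36.7 CPM in wt and 29.5 to 83.5 CPM in ko. Their part in the Ifng values was not tested. Ifnb1 had an estimate of 0.73 ± 0.36, or 0.42 without wt1.

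The interferon signalling list had 9 of 12 estimates below 0, with a median of -0.42 that became -0.19 without wt1. An unadjusted p under 0.05 was reached by 4 genes that were lower and 1 that was higher in ko, 5 of 12 in all, against 15.2% of all genes. Each ko library was below each wt library in 4 of the 12 (12.6% of all genes) and above each in 2 (1842 of all 13884 genes). The extremes were Usp18, an inhibitor of the type I interferon receptor (-0.83 ± 0.18, SE), and Irf5 (-0.62, or -0.33 without wt1) on the lower side. On the higher side were Socs1 (0.53) and Irf1, a transcription factor induced by interferon (0.54 ± 0.14, SE). Irf1 stood at 300.1, 286 and 226 CPM in wt1 to wt3 and 394, 412 and 375 CPM in ko1 to ko3, with the groups apart.

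Of the other interferon-stimulated genes, 20 of the 23 tested had estimates below 0, with a median of -0.33 over all libraries and -0.41 without wt1. Each ko library was below each wt library in 11 of the 23 (12.6% of all genes), and 10 passed an unadjusted p under 0.05 (15.2% of all genes), all lower in ko. The lowest estimates were those of the oligoadenylate synthetases Oas3 (-0.94 ± 0.22, SE) and Oas2 (-0.79), and the highest those of Ifih1 (0.07, or -0.17 without wt1) and Oasl1 (0.33, or 0.04 without wt1). Mx1 and Mx2 had no row.

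**Figure D5:**
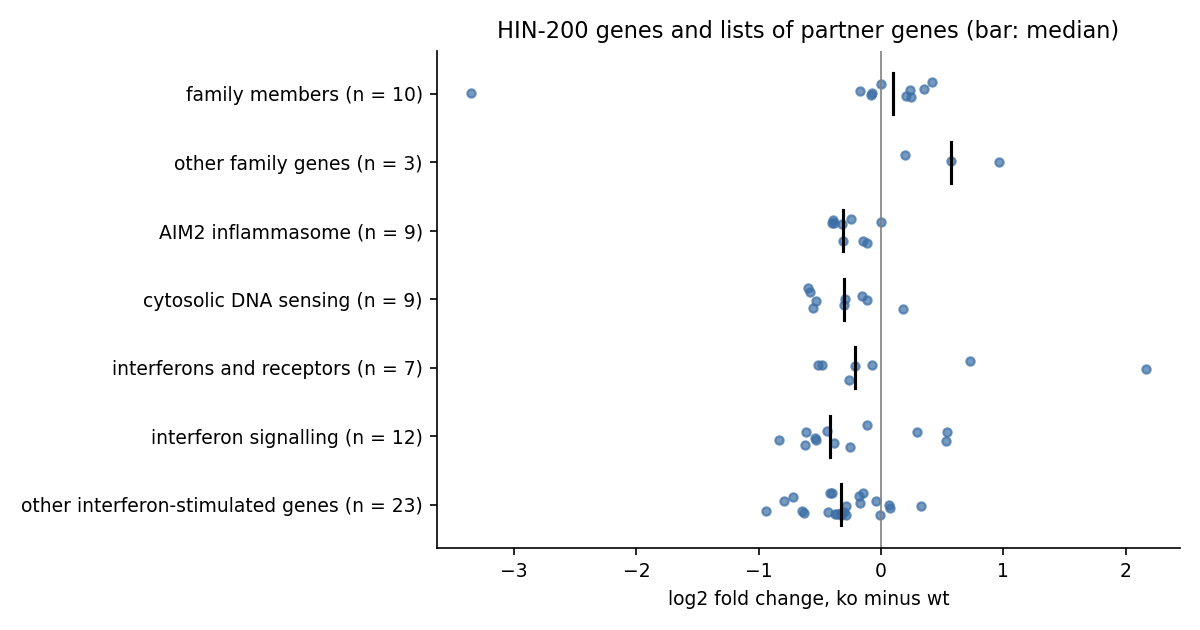
Fitted log2 difference, ko minus wt, of each tested gene in the family and in each list by role, with 1 point a gene and a bar at the list's median. The medians are 0.10 for the 10 members, -0.31 for the AIM2 inflammasome, -0.30 for cytosolic DNA sensing, -0.21 for interferons and receptors, -0.42 for interferon signalling and -0.33 for other interferon-stimulated genes.

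Marker levels differed between the labels too, some by narrow margins. The macrophage sum was at most 15782 CPM in ko and at least 15878 CPM in wt. The neutrophil sum was 571 to 1192 CPM in ko and 1202 to 1500 CPM in wt. The monocyte sum was 1503 to 2795 CPM in ko and 2896 to 4522 CPM in wt. The largest term of each sum overlapped between the groups. Lyz2 was at 9698 CPM in ko3 and 9354 CPM in wt3, and S100a9 at 762 CPM in ko1 and 728 CPM in wt1. Chil3 was at 1354 CPM in ko3 and 1252 CPM in wt3. Each ko library was below each wt library in 6 of the 10 macrophage markers, 3 of the 5 neutrophil markers and 2 of the 4 monocyte markers, against 12.6% of all genes tested. Dendritic cell markers (181 to 298 CPM in wt, 213 to 287 CPM in ko) and plasmacytoid dendritic cell markers (99.4 to 112 CPM in wt, 104 to 116 CPM in ko) overlapped between the groups, as did B cell markers (2.17 to 24.2 and 6.24 to 38.4 CPM) and endothelial markers (29.4 to 36.3 and 27.2 to 30.03 CPM). Bst2 is in the plasmacytoid list and among the interferon-stimulated genes. No summed marker list was at 0 in any library, and the part of these differences in the family and in the lists by role was not tested.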

How the data were processed

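The deposited tables hold raw counts and FPKM per gene. Checked from the values, each FPKM is the count over the gene's single length and the library total. The submitters' processing notes name the build mm10. The aligner and counter are not given in the sources used here. The 10 members, the lists by role and the marker lists were chosen with earlier results of these data known. All members are named, and from each list the genes at either extreme of the log2 difference.

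Counts were analysed with edgeR 4.0.16 in R 4.3.3 (filterByExpr, TMM, glmQLFit, glmQLFTest, Benjamini-Hochberg adjustment across 13884 genes). CPM values are TMM-scaled. The log2 CPM used a prior count of 2. The SE is the absolute log2 difference over the square root of F. Alternatives included DESeq2 1.42.0, and limma 3.58.1 on log2(FPKM + 1) and log2(FPKM + 0.1). The labels give 3 separate samples a group, while a legend of the paper names 2 mice for a display of these data. The number of animals is thus not certain, and p-values measure the spread between these samples, which may be technical. Intervals cover counting error only. Promoters and positions came from RefSeq GRCm38.p6, and transcripts from GENCODE.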

Additional observations from a re-analysis of the deposited data

How the results depend on the processing

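No gene passed an adjusted p of 0.05 in any edgeR or limma setting, including each fit without 1 library (0 to 0), while DESeq2 called 36 genes. At an unadjusted p under 0.05 edgeR called 2112 genes, DESeq2 2451, and edgeR 775 without ko1 and 669 without ko2. Genes of the lists by role were called in no setting, again 0 to 0 without 1 library. The family's median log2 difference of 0.10 lay between -0.25 and 0.37 without 1 library. It was -0.25 without wt replicate 1, and by that construction the members low in wt1 lost their lowest wt value. Limma on log2(FPKM + 0.1) moved the median of all genes to 0.16 and that of the family to 0.36. Ifi202b was below 0 in all 14 alternatives, from -3.87 to -1.57, the latter by limma on log2(FPKM + 1), which shrinks low values. Estimates of Ifi203, Ifi207 and Ifi209 changed sign only without wt1. The sign of Ifi204, Ifi205, Ifi211 and Ifi213 was kept in 12, 9, 10 and 5 of the 14 alternatives. Ifi204 was at 0.016 by limma on log2(FPKM + 1) and on log2(FPKM + 0.1). The summed family level gave a log2 ratio of ko to wt of 0.20 and the mean log2 CPM a difference of -0.07, both under the spread between libraries.

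With the replicate block 0 genes were called and the family median was 0.22. Deviations of libraries with the same number correlated at -0.24, 0.06 and -0.34. No pairing by number was seen, though so few values cannot exclude one. As 0 genes were called without the block, it had no call to remove.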
